A study of Mus musculus with 12 samples.

Results

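The 10 genes described here were listed together as sebaceous lipid genes. Among them are the elongases Elovl3, Elovl5 and Elovl6, the desaturases Scd1, Scd2 and Scd3, and the synthesis enzymes Fasn and Acly. The others are Mgst1, a glutathione transferase, and Acoxl, related by sequence to acyl-CoA oxidases, which the label of fatty acid synthesis does not cover. The 10 genes were taken by gene symbol from the platform annotation of the array. Each had 1 probe, and the annotation names 16964 genes in all. All 10 were measured and tested. The samples were tail skin papillomas of 6 mice. In 3 mice c-Fos was deleted in the epidermis (c-Fos-deficient, c-Fos Δ/Δ, specimens 6, 8 and 9), and in 3 mice the c-Fos alleles were floxed and active (c-Fos-floxed, c-Fos fl/fl, specimens 2, 3 and 5). In both groups the tumours came from active Sos, an exchange factor that turns on Ras, expressed under the keratin 5 promoter in keratinocytes. The background was 129/Ola, C57BL/6, CBA, LVA and B6C3F1, mixed. The sources used here do not give age or the Cre driver. Stroma in these papillomas would keep its Fos alleles, since the deletion was restricted to the epidermis.

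Sebaceous glands open into hair follicles and secrete sebum by the bursting of lipid-filled sebocytes. Acly makes cytosolic acetyl-CoA from citrate, and Fasn builds it into palmitate. Elongases then lengthen fatty acids, with Elovl6 acting on palmitate, Elovl5 on polyunsaturated fatty acids, and Elovl3 on saturated and monounsaturated very long chains in sebaceous glands and brown fat. The Scd enzymes place a double bond in saturated fatty acids. Scd1 is the main form of sebocytes, and mice without it (asebia) have shrunken sebaceous glands. Mgst1 is a microsomal glutathione transferase of the MAPEG family, and Acoxl is related by sequence to the acyl-CoA oxidases of peroxisomes.

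Promoter windows from RefSeq (GRCm38.p6) were held for 7 of the 10 genes, Acoxl, Elovl5, Elovl6, Mgst1, Scd3, Acly and Fasn. The 250 bases before the start are shown for Elovl6 and Acoxl, whose c-Fos-deficient specimens all lay above the c-Fos-floxed ones. They are also shown for Fasn and Acly, whose groups overlapped. None of these genes passed the adjusted threshold described below. Capitals mark CCAAT, the NF-Y box, on either strand.
Elovl6, chr3:129532136-129532385, plus strand: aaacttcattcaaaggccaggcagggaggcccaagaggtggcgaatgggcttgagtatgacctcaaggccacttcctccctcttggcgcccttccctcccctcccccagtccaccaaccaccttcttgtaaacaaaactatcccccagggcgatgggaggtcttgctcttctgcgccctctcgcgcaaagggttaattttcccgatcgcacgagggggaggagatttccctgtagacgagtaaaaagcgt
Acoxl, chr2:127854378-127854627, plus strand: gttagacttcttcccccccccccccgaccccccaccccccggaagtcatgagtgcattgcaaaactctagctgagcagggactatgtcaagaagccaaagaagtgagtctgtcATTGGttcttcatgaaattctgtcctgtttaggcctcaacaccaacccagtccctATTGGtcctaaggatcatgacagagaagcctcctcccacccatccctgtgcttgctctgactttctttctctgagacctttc
Fasn, chr11:120824548-120824797, minus strand: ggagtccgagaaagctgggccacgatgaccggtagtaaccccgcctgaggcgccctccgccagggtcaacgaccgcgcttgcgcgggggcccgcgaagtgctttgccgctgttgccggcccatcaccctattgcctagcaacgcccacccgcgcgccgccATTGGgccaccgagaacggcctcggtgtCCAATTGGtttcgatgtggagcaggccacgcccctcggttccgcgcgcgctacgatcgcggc
Acly, chr11:100528001-100528250, minus strand: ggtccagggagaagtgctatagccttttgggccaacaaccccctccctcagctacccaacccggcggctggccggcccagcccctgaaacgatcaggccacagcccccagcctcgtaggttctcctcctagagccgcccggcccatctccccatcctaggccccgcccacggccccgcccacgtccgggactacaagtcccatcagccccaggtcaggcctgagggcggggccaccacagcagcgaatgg
CCAAT occurred 3 times in the Fasn window, where 2 matches on opposite strands overlap, and 2 times each in those of Acoxl and Elovl5, which makes 3 of the 7 genes. It was in 37.5% of all 27025 genes with such windows, and in 33.8% of the 32851 windows. The AP-1 motif TGANTCA, searched on both strands, was in 0 of the 7 genes' windows and in those of 7.82% of all genes. A match or its absence in 250 bases is a description of these letters and says nothing about binding.

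Each papilloma was hybridised on 2 arrays with exchanged dyes against a reference RNA pooled from 11 mouse cell lines, which gave 12 arrays. Values are log ratios, taken as log2 of papilloma over reference, and the mean of the 2 arrays was the value of a specimen. An array held values for 20811 to 26490 of 37632 probes. Across probes, Pearson's r lay between 0.705 and 0.963 for the 66 pairs of arrays, so the ratios ran the same way in both dye orientations. Papilloma over reference is the likely direction, as keratinocyte genes had high values: Krt14 averaged 5.47 in c-Fos-deficient and 5.34 in c-Fos-floxed specimens. Fos, the deleted gene, was at -4.01, -4.43 and -3.91 in c-Fos-deficient specimens 6, 8 and 9, against -1.30, -0.56 and -1.56 in c-Fos-floxed specimens 2, 3 and 5. Its groups lay 2.35 apart, and whether its probe lies in the deleted stretch is not known here. Spot signals were not analysed here, so a ratio near 0 may come from a spot with little signal in both channels.

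Of the 10 genes, 6 had every c-Fos-deficient specimen above every c-Fos-floxed one: Elovl3, Elovl6, Scd1, Scd3, Mgst1 and Acoxl. Over the 22918 probes with all 6 specimens this was so for 9.76%, and the opposite order, found for 0 of the 10 genes, held for 10.1%. The other 4 genes, Elovl5, Scd2, Fasn and Acly, overlapped between the groups. In limma, over 24727 probes, 5 of the 10 genes had an unadjusted p under 0.05 with a higher value in c-Fos-deficient papillomas, against 3.85% of all probes in that direction. None of the 10 did with a lower value, against 8.45% of all probes. The 10 genes were chosen with earlier results of these data known, so setting their counts beside these shares is no test of the set. After Benjamini-Hochberg adjustment over all probes 0 of the 10 genes and 0% of all probes had an adjusted p under 0.05, and the genes' adjusted p ran from 0.191 to 0.733, so none is called changed. The median difference, c-Fos-deficient minus c-Fos-floxed, was 0.97 over the 10 genes and -0.004 over all probes.

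**Figure D1:**
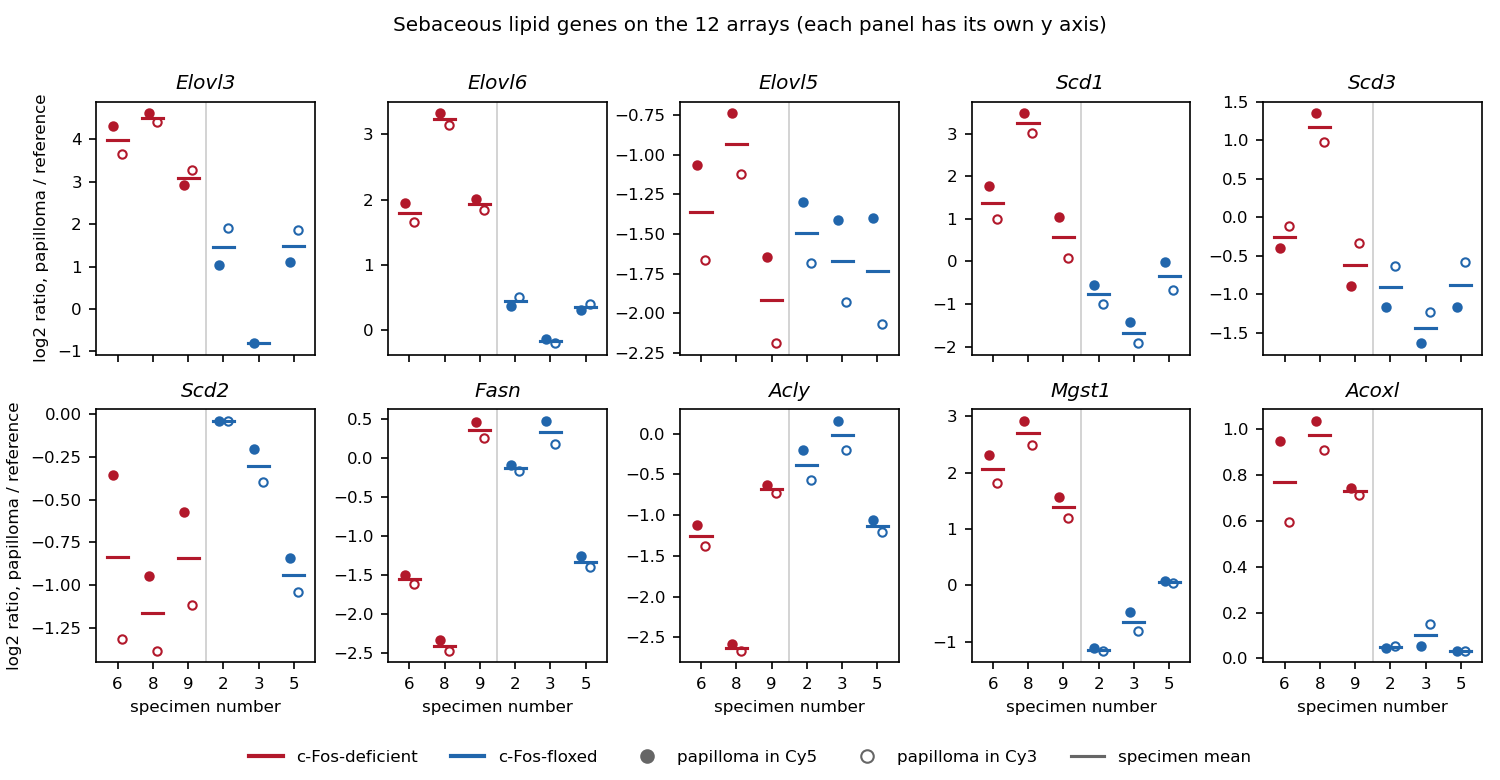
Log2 ratio of papilloma over reference (vertical axis, its own range in each panel) by specimen (horizontal axis) for the 10 genes, with c-Fos-deficient specimens in red and c-Fos-floxed specimens in blue. Filled points are arrays with the papilloma in Cy5, open points those in Cy3, and bars are specimen means. Elovl3, Elovl6, Scd1, Scd3, Mgst1 and Acoxl have all 3 red bars above all 3 blue bars, while the groups overlap for the other 4 genes.

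Among the elongases, Elovl3 showed the largest difference of the 10 genes. Its log2 ratio was 3.98, 4.51 and 3.09 in c-Fos-deficient specimens 6, 8 and 9, against 1.47, -0.81 and 1.49 in c-Fos-floxed specimens 2, 3 and 5. Every c-Fos-deficient papilloma lay above every c-Fos-floxed one, and specimen 3 lay apart at the low end. The group means were 3.86 ± 0.72 in c-Fos-deficient and 0.71 ± 1.32 in c-Fos-floxed specimens (SD, n = 3 each). The difference was 3.15 (SE 0.73, 95% confidence interval 1.34 to 4.95), which is 8.86-fold if the logs are to base 2, with an unadjusted p of 0.00561 and an adjusted p of 0.236 in limma. Of all probes tested, 0.077% had a higher difference. The value of specimen 3 rests on 1 array, with the papilloma in Cy5, since its other array held no value. In specimens 2 and 5 the Cy5 array read 0.87 and 0.77 below the Cy3 array, while in specimen 6 it read 0.67 above. With both arrays required, specimen 3 dropped out and Elovl3 differed by 2.38. On the Cy3 arrays alone it differed by 1.89, and on the Cy5 arrays alone by 3.51.

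Elovl6, which turns palmitate into stearate, was at 1.80, 3.23 and 1.93 in c-Fos-deficient specimens 6, 8 and 9, against 0.44, -0.17 and 0.35 in c-Fos-floxed specimens 2, 3 and 5. The groups were 1.36 apart, with specimen 8 standing above the other c-Fos-deficient papillomas. The difference was 2.11 (SE 0.42, 95% confidence interval 1.07 to 3.16), with an unadjusted p of 0.00279 and an adjusted p of 0.219 in limma. Elovl6 read nearly the same in both dyes, the Cy5 array lying between 0.14 below and 0.29 above the Cy3 array of the same specimen.

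Elovl5, the elongase of polyunsaturated fatty acids, did not separate the groups. It was at -1.36, -0.93 and -1.92 in c-Fos-deficient specimens and at -1.49, -1.67 and -1.73 in c-Fos-floxed specimens. Specimen 9 was the lowest of the 6 papillomas and specimen 8 the highest, both from the c-Fos-deficient group. The difference was 0.23 (SE 0.26), and its 95% confidence interval, -0.41 to 0.86, does not reach the differences measured for Elovl3 and Elovl6. Without specimen 8 the difference was -0.008, and without specimen 9 it was 0.48. Within specimens, the Elovl6 ratio exceeded the Elovl5 ratio by 3.72 ± 0.51 in c-Fos-deficient and by 1.84 ± 0.305 in c-Fos-floxed papillomas (SD, n = 3 each). The gap between these 2 elongases thus differed by 1.88 between the groups, with an exact two-sided permutation p of 0.1, the smallest that 20 assignments of the specimens allow. This gap is built from values already given and is no separate test of them.

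Of the 3 desaturases, Scd1 and Scd3 separated the groups and Scd2 did not. Scd1, the sebocyte form, was at 1.38, 3.25 and 0.57 in c-Fos-deficient specimens 6, 8 and 9, against -0.77, -1.67 and -0.34 in c-Fos-floxed specimens 2, 3 and 5. The groups did not overlap, but the c-Fos-deficient specimens spread over more than 2 log2 units, from specimen 9 at the bottom to specimen 8 at the top. The difference was 2.66 (SE 0.75, 95% confidence interval 0.81 to 4.50), with an unadjusted p of 0.0128 and an adjusted p of 0.277 in limma. Without specimen 8 it was 1.90.

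Scd3, a desaturase known from the sebocytes and Harderian gland of the mouse, followed the same order of c-Fos-deficient specimens at lower ratios. It was at -0.25, 1.17 and -0.62 in specimens 6, 8 and 9, against -0.90, -1.44 and -0.88 in c-Fos-floxed specimens 2, 3 and 5. Only 0.26 separated the groups, and specimen 8 alone was above 0. The difference was 1.17 (SE 0.49, 95% confidence interval -0.03 to 2.37), with an unadjusted p of 0.0548 and an adjusted p of 0.414 in limma. Without specimen 8 it was 0.64, the smallest value over the alternatives tried.

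Scd2, the more widely expressed form that is prominent in brain and in neonatal skin, had its mean on the other side of 0 difference. It was at -0.84, -1.17 and -0.84 in c-Fos-deficient specimens, against -0.04, -0.30 and -0.94 in c-Fos-floxed specimens. The groups overlapped through c-Fos-floxed specimen 5, which was lower than c-Fos-deficient specimens 6 and 9. The difference was -0.52 (SE 0.25, 95% confidence interval -1.15 to 0.10), with an adjusted p of 0.472 in limma. It was -0.26 with the papilloma in Cy5 alone and -0.78 in Cy3 alone. Without specimen 2 it was -0.33, and without specimen 5 it was -0.78 with an unadjusted p of 0.00588. Within specimens Scd1 exceeded Scd2 by 2.21, 4.42 and 1.41 in c-Fos-deficient specimens 6, 8 and 9, while in c-Fos-floxed specimens 2, 3 and 5 the same gap was -0.73, -1.37 and 0.60. The gaps did not overlap, their means differed by 3.18, and the exact two-sided permutation p was 0.1, the smallest possible. These gaps are built from the Scd1 and Scd2 values already given and are no separate test of them. The Scd genes are close paralogs that lie near each other on chromosome 19. Whether a probe also captures transcripts of another member was not tested. Scd4, a further paralog, had a difference of 0.04 (SE 0.09), with all its specimen values between 0.12 and 0.30.

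**Figure D2:**
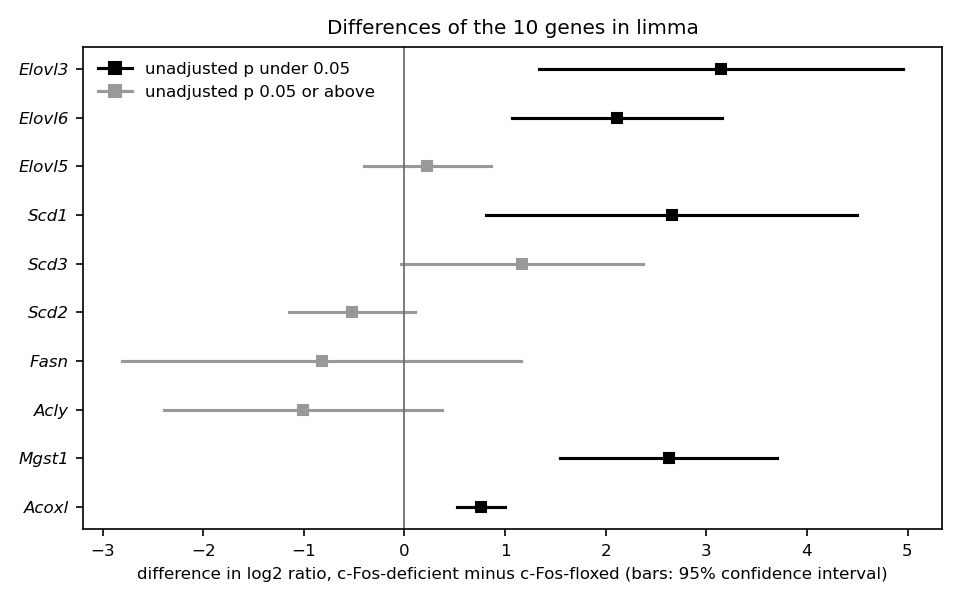
Difference in log2 ratio, c-Fos-deficient minus c-Fos-floxed (horizontal axis), for each of the 10 genes (vertical axis) with 95% confidence intervals from limma, 3 specimens a group. Black marks an unadjusted p under 0.05. The intervals of Elovl3, Elovl6, Scd1, Mgst1 and Acoxl lie above 0, and those of the other 5 genes contain 0.

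Fasn and Acly, which supply the palmitate that elongases and desaturases work on, were not higher in c-Fos-deficient papillomas. Fasn was at -1.55, -2.40 and 0.36 in c-Fos-deficient specimens 6, 8 and 9, against -0.13, 0.33 and -1.33 in c-Fos-floxed specimens 2, 3 and 5. The groups overlapped, since the highest value of all came from specimen 9 and a low one from c-Fos-floxed specimen 5. The difference was -0.82 (SE 0.80, 95% confidence interval -2.80 to 1.16), with an adjusted p of 0.699 in limma. It was -0.22 without specimen 8, -1.60 without specimen 9, -0.47 without specimen 3 and -1.30 without specimen 5.

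Acly was at -1.25, -2.63 and -0.68 in c-Fos-deficient specimens, against -0.39, -0.02 and -1.14 in c-Fos-floxed specimens. Specimen 8 lay far below the others, and c-Fos-floxed specimen 5 lay among the c-Fos-deficient ones. The difference was -1.01 (SE 0.56, 95% confidence interval -2.39 to 0.38), with an adjusted p of 0.521 in limma. It was -0.46 without specimen 8 and -1.43 without specimen 9. The upper ends of the intervals, 1.16 for Fasn and 0.38 for Acly, lie below the differences of Elovl3, Elovl6, Scd1 and Mgst1. Those differences have errors of their own, and the Fasn interval overlaps those of Elovl6 and Scd1, which start at 1.07 and 0.81. Set against each other within specimens, Elovl6 and Fasn overlapped between the groups. Elovl6 exceeded Fasn by 3.35, 5.63 and 1.57 in c-Fos-deficient specimens 6, 8 and 9, against 0.57, -0.50 and 1.68 in c-Fos-floxed specimens 2, 3 and 5 (exact two-sided permutation p of 0.2). The gap between Fasn and Acly differed by 0.19 between the groups (exact permutation p of 0.9). Over the 7 such gaps computed, the Benjamini-Hochberg adjusted values of these exact tests ran from 0.14 to 0.9. The 7 pairs were picked by hand from genes chosen with earlier results known, so these values are no independent support. Slc25a1, the mitochondrial citrate carrier that feeds Acly, was at -1.08, -1.80 and 0.56 in c-Fos-deficient specimens 6, 8 and 9, against -0.41, 0.37 and -1.16 in c-Fos-floxed specimens 2, 3 and 5. As for Fasn, specimen 9 was the highest and specimen 8 the lowest of the 6. These extremes were not particular to the pathway. Jup, from the keratinocyte marker list, was at 0.06 in specimen 8 and 3.91 in specimen 9, also the lowest and highest. In the pattern search described below, 310 probes lay within 0.5 of Fasn.

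Mgst1 was at 2.06, 2.70 and 1.39 in c-Fos-deficient specimens 6, 8 and 9, against -1.14, -0.65 and 0.06 in c-Fos-floxed specimens 2, 3 and 5. The groups were 1.33 apart. The difference was 2.63 (SE 0.44, 95% confidence interval 1.54 to 3.71), which is 6.17-fold if the logs are to base 2, with an unadjusted p of 0.00114 and an adjusted p of 0.202 in limma. It lay between 2.30 and 2.96 over the 16 alternatives. Mgst3, another microsomal transferase of the MAPEG family, differed by -0.37 (SE 0.44) and overlapped between groups. The cytosolic transferase Gsta4 was lower in every c-Fos-deficient specimen, at 0.94, -0.66 and 0.14, than in the c-Fos-floxed ones, at 1.83, 2.10 and 1.19. Its difference was -1.56 (SE 0.45, adjusted p of 0.287 in limma).

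Acoxl had the smallest difference of the 6 genes that separated the groups, and the least spread. It was at 0.77, 0.97 and 0.73 in c-Fos-deficient specimens 6, 8 and 9, against 0.05, 0.10 and 0.03 in c-Fos-floxed specimens 2, 3 and 5. The SD was 0.13 in c-Fos-deficient and 0.04 in c-Fos-floxed specimens (n = 3 each). The difference was 0.76 (SE 0.10, 95% confidence interval 0.53 to 1.001), or 1.70-fold if the logs are to base 2, with an unadjusted p of 2.69e-04 and an adjusted p of 0.191 in limma, the lowest of the 10 genes. The peroxisomal oxidases of the same family overlapped between groups: Acox2 differed by 0.09 (SE 0.08) and Acox3 by 0.10 (SE 0.10). All specimen values lay between 0.18 and 0.41 for Acox2 and between -0.02 and 0.23 for Acox3. Acox3 had 3 probes, and only the probe chosen is given. These ratios, and those of Acoxl in c-Fos-floxed specimens, are near 0, where a spot may have little signal.

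**Figure D3:**
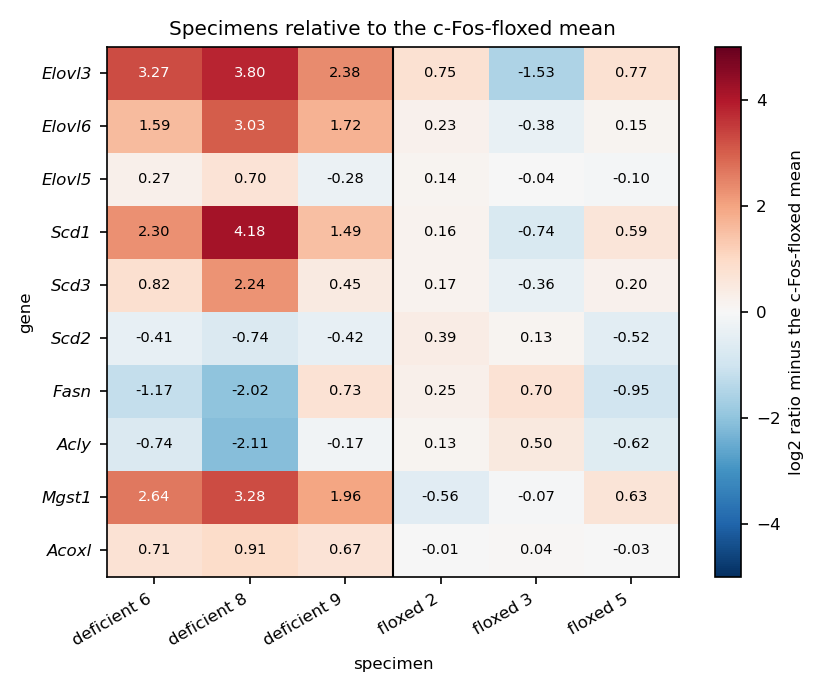
Log2 ratio of each specimen (columns) minus the c-Fos-floxed mean of the gene (rows), with c-Fos-deficient specimens to the left of the line. Specimen 8 has the largest positive value in each row whose mean difference is above 0, such as 4.18 for Scd1, and the lowest in the Scd2, Fasn and Acly rows, such as -2.11 for Acly.

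The c-Fos-deficient papillomas differed among themselves in the same order for most of the genes. Specimen 8 was the highest of the 3 for 7 of the 7 genes with a difference above 0 and the lowest for 3 of the 3 below 0. Over all probes with 6 specimens, specimen 8 was the highest c-Fos-deficient specimen for 48.2% of those with a difference above 0 and the lowest for 46.6% of those below 0. Relative to the c-Fos-floxed mean, the values for specimens 8, 6 and 9 were 3.80, 3.27 and 2.38 for Elovl3. For Scd1 they were 4.18, 2.30 and 1.49. Without specimen 8 the differences were 2.82 for Elovl3, 1.65 for Elovl6, 2.30 for Mgst1, 0.69 for Acoxl, 1.90 for Scd1 and 0.64 for Scd3. Leaving out a specimen cannot make separated groups overlap, so the separation of these genes without specimen 8 is no check. Among the c-Fos-floxed papillomas, specimen 3 was the lowest for Elovl3, Elovl6, Scd1 and Scd3 and the highest for Fasn and Acly.

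Genes of the wider pathway, taken from lists that do not include the 10 genes, did not follow Elovl3 and Scd1 as a group. Of 24 other genes of fatty acid synthesis and desaturation tested, 0 passed the adjusted threshold, and the median difference was 0.03. At an unadjusted p under 0.05, 2 were higher and 3 lower, against 3.85% and 8.45% of all probes. The most separated was Olah, the thioesterase that releases medium-chain fatty acids from Fasn. It was at 1.93, 2.79 and 2.52 in c-Fos-deficient specimens 6, 8 and 9, against 0.49, 0.33 and 0.44 in c-Fos-floxed specimens 2, 3 and 5. Its difference was 1.99 (SE 0.23), with an adjusted p of 0.191 in limma. Hacd2, a dehydratase of the elongation cycle, differed by 0.68 (SE 0.25). On the lower side, the acyl-CoA synthetase Acsl1 differed by -1.07 (SE 0.35), and a second probe of it by -0.76 (SE 0.14). Fads3, related to the fatty acid desaturases, differed by -1.41 (SE 0.46). Among other elongases, Elovl4, which makes barrier lipids, differed by -0.58 (SE 0.23), Elovl7 by -0.36 (SE 0.24) and Elovl1 by -0.76 (SE 0.40). Acaca, which makes malonyl-CoA for Fasn, differed by -0.05 (SE 0.08), with all its specimen values between -0.35 and -0.18. Elovl1 had 2 probes and Acaca 4, and only the probe chosen for each is given.

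The 17 regulators of lipid synthesis tested had a median difference of -0.05. At an unadjusted p under 0.05, 2 were higher and 1 lower, against 3.85% and 8.45% of all probes. Pparg, the nuclear receptor needed for sebocyte differentiation, was at -0.09, 0.58 and -0.98 in c-Fos-deficient specimens 6, 8 and 9, against -1.76, -1.22 and -1.51 in c-Fos-floxed specimens 2, 3 and 5. All c-Fos-deficient specimens lay above the c-Fos-floxed ones, and the difference was 1.33 (SE 0.41, adjusted p of 0.300 in limma). Ppargc1b, a coactivator of lipid genes, differed by 0.37 (SE 0.13). Mbtps2, the protease that releases SREBP factors, differed by -0.40 (SE 0.12), and 3 further probes of it gave -0.22, -0.35 and -0.55. Srebf1, which encodes the SREBP factor of fatty acid synthesis, overlapped between groups at a difference of -0.06 (SE 0.72). It was lowest in specimen 8 (-3.01) and highest in specimen 9 (-0.57), the same extremes as Fasn and as Jup, a gene outside the pathway.

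Cholesterol synthesis genes lay on the other side of 0 from Elovl3 and Scd1. Of 16 genes tested 16 had a difference below 0, from -1.39 to -0.05, with a median of -0.45, while 49.2% of all probes were above 0. At an unadjusted p under 0.05, 6 were lower and 0 higher, against 8.45% and 3.85% of all probes, and 0 passed the adjusted threshold. In 7 of the 16 every c-Fos-deficient specimen was below every c-Fos-floxed one, against 10.1% of probes with all 6 specimens. Sqle, the squalene epoxidase, was at 0.06, 0.44 and 0.30 in c-Fos-deficient specimens 6, 8 and 9, against 1.17, 0.99 and 1.10 in c-Fos-floxed specimens 2, 3 and 5. Its difference was -0.82 (SE 0.13, adjusted p of 0.196 in limma). Sc5d and Nsdhl, enzymes of the later steps, differed by -0.87 (SE 0.17) and -0.86 (SE 0.18). The mean over the list, relative to the c-Fos-floxed mean, was -0.61, -0.77 and -0.37 in c-Fos-deficient specimens 6, 8 and 9, against 0.18, -0.10 and -0.08 in c-Fos-floxed specimens 2, 3 and 5, so the groups did not overlap.

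Other lipid lists gave no common direction. Of 18 genes of neutral lipid and wax synthesis 13 lay below 0, with a median of -0.37. At an unadjusted p under 0.05 there were 1 higher and 3 lower, against 3.85% and 8.45% of all probes. The higher one was Far2, the fatty acyl-CoA reductase that makes the alcohols of wax esters, at 1.78, 3.52 and 2.26 in c-Fos-deficient specimens 6, 8 and 9, against 0.40, 0.44 and 1.16 in c-Fos-floxed specimens 2, 3 and 5. Its difference was 1.86 (SE 0.49, adjusted p of 0.258 in limma). Cidec, a lipid droplet protein, differed by -0.49 (SE 0.11) and by -0.03 with 12 arrays and the specimen as a random block, Mogat2, an acyltransferase, differed by -0.42 (SE 0.13), and the phosphatase Lpin2, which overlapped between groups, by -0.65 (SE 0.24). Of 12 genes of peroxisomal beta-oxidation 9 lay above 0, with a median of 0.09. Amacr, a racemase of branched fatty acids, differed by 0.66 (SE 0.20), and Hsd17b4, the bifunctional enzyme of the pathway, by 0.51 (SE 0.24). Abcd3, a peroxisomal transporter, had 2 probes of opposite sign, -0.43 and 0.66, and the first gave -0.26 without specimen 8. Of 10 MAPEG family and glutathione genes 6 lay below 0, with a median of -0.35, and Ptges and Gstp1 differed by -0.97 (SE 0.52) and -0.44 (SE 0.23). Ptges was at -0.39 without specimen 8, and Gstp1 at -0.23 without specimen 6 and -0.66 without specimen 9.

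**Figure D4:**
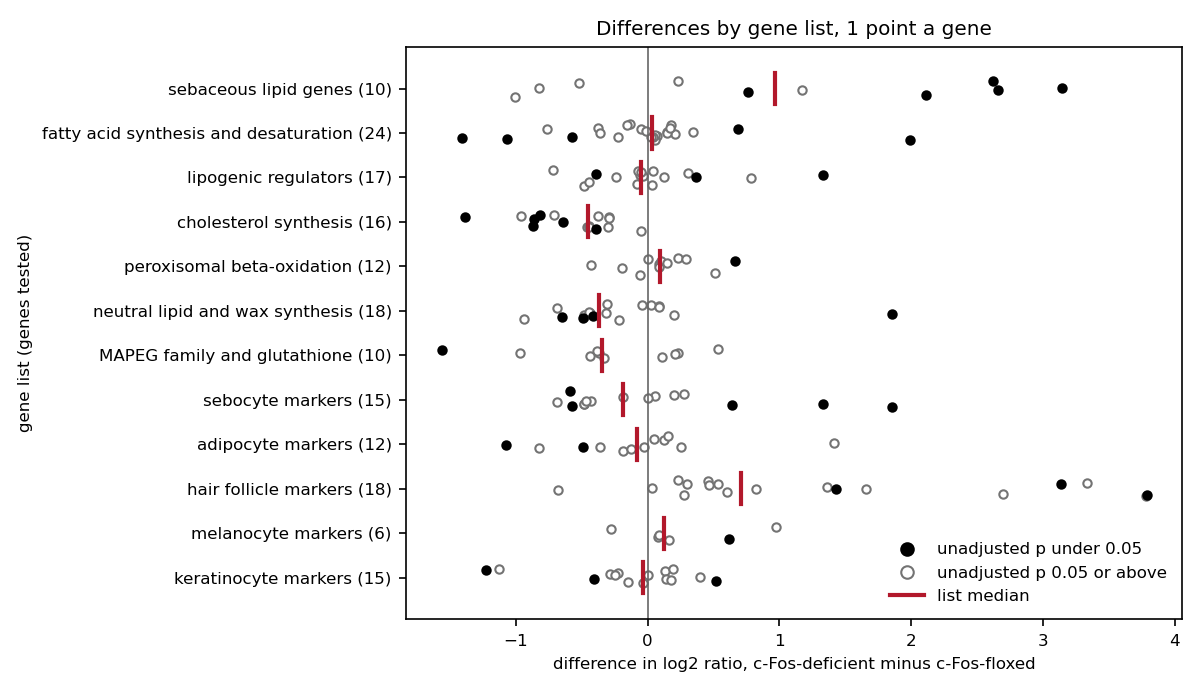
Difference in log2 ratio, c-Fos-deficient minus c-Fos-floxed (horizontal axis), for each tested gene of 12 lists (rows, with the number of genes), 1 point a gene, filled where the unadjusted p is under 0.05. Red bars are list medians. The sebaceous lipid genes have a median of 0.97 and the hair follicle markers 0.71, whereas all 16 cholesterol synthesis genes lie below 0.

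Marker lists were read beside these genes, because fewer cells of a type and less RNA per cell cannot be told apart in whole papillomas. Sebocyte markers were split: of 15 tested, 7 lay above and 8 below 0, with a median of -0.19, and the list mean relative to the c-Fos-floxed mean was between -0.13 and 0.13 in c-Fos-deficient and between -0.01 and 0.01 in c-Fos-floxed specimens. Far2, Pparg and Krt79, a keratin of the sebaceous duct that differed by 0.64 (SE 0.20), were higher at an unadjusted p under 0.05, while Prdm1, which encodes the transcription repressor Blimp1, differed by -0.59 (SE 0.18) and Elovl4 lay below 0 as well. Dgat2, Soat1, Cidea and Plin2, which sebocytes also use for lipid storage, overlapped between groups. The markers Mc5r and Awat2 had too few values to be tested. The label of a sebaceous gene set is thus borne out by some markers and not by others.

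Hair follicle markers lay on the same side as Elovl3 and Scd1. Of 18 tested, 17 lay above 0, against 49.2% of all probes, with a median of 0.71. At an unadjusted p under 0.05, 3 were higher, against 3.85% of all probes, and 0 passed the adjusted threshold. In 8 of the 18 every c-Fos-deficient value was above every c-Fos-floxed one, against 9.76% of probes with all 6 specimens. Over the 15 markers with a value in all 6 specimens, the mean relative to the c-Fos-floxed mean was 0.76, 1.88 and 0.25 in c-Fos-deficient specimens 6, 8 and 9, against values between -0.02 and 0.03 in c-Fos-floxed specimens. Krt27, Krt33b and Krt81, without a value in specimen 2, differed by 3.34, 3.79 and 2.70. Specimen 8 was the highest and specimen 9 the lowest of the c-Fos-deficient papillomas, the order that Scd1 and Mgst1 showed. S100a3, a hair cuticle protein, was at 3.42, 5.87 and 2.03 in c-Fos-deficient specimens, against 0.59, 0.72 and 0.59 in c-Fos-floxed ones. Krt36, a hair keratin, differed by 1.43 (SE 0.27), and a second probe of it by 0.22 (SE 0.42). Krt86, another hair keratin, differed by 3.79 (SE 1.33), and its other probes by 2.94 and 2.36. Without specimen 8 the differences were 2.09 for S100a3 and 2.45 for Krt86. In c-Fos-floxed specimens Krt31 was at 0.24 and Krt33a between 0.14 and 0.32, near 0, where a spot may have little signal. The part of hair follicle content in the sebaceous lipid values was not tested.

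Adipocyte markers, of which several also serve sebocytes, were not higher. Of 12 tested, 5 lay above and 7 below 0, with a median of -0.08. Over the 11 with a value in all 6 specimens, the mean relative to the c-Fos-floxed mean was between -0.37 and -0.05 in c-Fos-deficient and between -0.06 and 0.08 in c-Fos-floxed specimens. Fabp4, the fatty acid carrier of fat cells, was at 5.05, 4.63 and 5.58 in c-Fos-deficient specimens, against 5.82, 6.31 and 6.37 in c-Fos-floxed specimens, a difference of -1.08 (SE 0.28). Car3, an enzyme of fat and muscle, differed by 1.41 (SE 0.91) and had no value in specimen 9. It was 0.75 without specimen 3 and 2.14 without specimen 5. Adipoq had too few values to be tested. Melanocyte markers lay above 0 in 5 of 6 cases with a median of 0.12, with Sox10 at 0.61 (SE 0.19), Tyrp1 at 0.98 (SE 0.44) and Pmel at 0.16 (SE 0.14). Tyrp1 was at 0.65 without specimen 8 and 1.47 without specimen 9, and Pmel at 0.05 and 0.29. Keratinocyte markers had a median of -0.03 over 15 genes, and those with the smallest p were Dsg3 at -1.23 (SE 0.14), Krt16 at 0.52 (SE 0.15) and Trp63 at -0.41 (SE 0.14).

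Genes with the most similar pattern were sought among 15111 named probes, by the root mean square difference of the 6 specimen values after centring each probe. Nearest to Elovl3 outside the 10 genes were Cyp17a1 (0.66), Oas1f (0.74), Akr1c18 (0.83), Wfdc21 (0.86) and Calm5 (0.87), while Scd1 itself was closer still at 0.64. Nearest to Scd1 were Cd36 (0.50), Slc40a1 (0.54), Calhm5 (0.55), Krtap4-2 (0.59) and a probe of Krt86 (0.59). This Krt86 probe is the one that differed by 2.36, not the one that differed by 3.79. Elovl6 lay at 0.54, Mgst1 at 0.59 and Elovl3 at 0.64 from Scd1. Nearest to Mgst1 were Tnmd (0.37), Oas1f (0.49), Cthrc1 (0.53), Far2 (0.56) and Calhm5 (0.56). Scd2, Fasn and Acly lay at 1.92, 2.50 and 2.40 from Scd1. Fasn was added to this search after its values were seen. It had 310 probes within 0.5, against 0 for Elovl3 and for Scd1 and 2 for Mgst1, and its nearest were 2510039O18Rik (0.13), Ctsd (0.14), Ngef (0.15), Ppp2r1a (0.16) and Ajuba (0.18). The values were not scaled, so a gene with a large difference can have few probes within 0.5 whatever its pattern. These counts therefore do not compare how common the patterns are.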

How the data were processed

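Tail papillomas of 6 mice were measured on 12 spotted 2-colour arrays. The deposited values are log ratios, taken as log2 of papilloma over reference, 1 per probe and array. The sources used here do not state the authors' background correction, normalization or log base, or why some cells are empty. A natural log would make each fold larger. Of 37632 probes, 20879 had 1 gene symbol, 0 several and 16753 none. Symbols were updated through RefSeq synonyms (12801 of 16964 current, 4006 updated, 58 with several matches, 99 with none).

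The 2 arrays of a specimen were averaged, or 1 array used where the other was empty, as in 6735 of the probes tested. Probes with at least 2 specimens of each group were fitted in limma 3.58.1 (R 4.3.3) with lmFit and eBayes, two-sided, with Benjamini-Hochberg adjustment over all 24727 probes and a threshold of 0.05. The script was tested on simulated data. Tables and figures used Python 3.11.15, pandas 2.3.3 and matplotlib 3.10.9. The precision is limited by 3 specimens a group. Intervals are at the 95% level.

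List genes stand for the probe with most values, lowest number on ties. Per list, the 3 genes of smallest unadjusted p, and the 5 nearest patterns to Elovl3, Scd1 and Mgst1, are named by rule. Acaca, Elovl1, Elovl4, Elovl7, Hacd2, Scd4, Slc25a1, Srebf1, Acox2, Acox3, Mgst3, Lpin2, Krt79, Krt14, Jup and the overlapping sebocyte genes were named after their values were seen. The members and lists were chosen with earlier results of these data known. The 16 alternatives covered array scaling, missing values, gene means, dye orientation, the model and each specimen left out.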

Additional observations from a re-analysis of the deposited data

How the results depend on the processing

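Elovl3, Elovl6, Mgst1, Acoxl and Scd1 had an unadjusted p under 0.05 and the same sign under every alternative that gave a value (15 for Elovl3, 16 for the others). Their differences ranged over 1.89 to 3.53 for Elovl3, 1.65 to 2.37 for Elovl6, 2.30 to 2.96 for Mgst1, 0.66 to 0.87 for Acoxl and 1.90 to 3.24 for Scd1. Scd3 ranged over 0.64 to 1.53, Scd2 over -0.78 to -0.26, Fasn over -1.60 to -0.22 and Acly over -1.43 to -0.46. Elovl5 changed sign without specimen 8 (-0.00798; 0.484 without specimen 9), for which the cause was not tested. Abcd3 became 0.118 when its 2 probes, of opposite sign, were averaged.

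The count of all probes with an adjusted p under 0.05 was 1 with the papilloma in Cy3 alone, 427 with 12 arrays and the specimen as a random block, and between 0 and 1 with a specimen left out (1 without specimen 9). The random block, at a correlation of 0.593, takes degrees of freedom from arrays although genotype varies between specimens. There the adjusted p was 0.00765 for Mgst1, 0.0130 for Elovl6, 0.0131 for Acoxl, 0.0365 for Scd1 and 0.0397 for Elovl3. Of the 10 genes, the number lower at an unadjusted p under 0.05 was 1 in Cy3 alone, 1 with the block and between 0 and 2 with a specimen left out: 2 without specimen 9 and 1 without specimen 5. The number wholly below the other group was 1 in Cy3 alone and between 0 and 2 likewise, 2 without specimen 9 or 5. With a specimen left out, groups separate more easily. The shares of all probes in these settings are not given, so these lower counts have no background beside them. Quantile normalization moved the higher share of probes with an unadjusted p under 0.05 to 45.5%, against 31.3%. Of the cholesterol genes 15 or 16 of 16 stayed below 0 under alternatives chosen after seeing the data. Hair follicle markers above 0 numbered 11 of 12 on probes with all 12 arrays and 14 of 18 without specimen 8. No paired analysis was possible because the groups share no specimen number.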
